A study of Mus musculus with 53 samples.

Results

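The cells described here are barcodes of the postnatal day 7 (P7) mouse cerebellum that carry transcripts of the contractile apparatus of skeletal muscle. A barcode is the tag combination that marks 1 cell, and a UMI is 1 counted transcript molecule. A barcode with at least 1000 UMIs and at least 500 genes was taken as a sarcomere-positive cell where at least 5 of 12 sarcomere and muscle genes had a UMI: Ttn, Neb, Myh3, Actc1, Acta1, Mybpc1, Ryr1, Klhl41, Tnnt3, Actn2, Myl1 and Tnnc2. This gave 11,581 cells of 79,855 barcodes past the depth filter in 10 libraries. Each library is 1 cerebellum of 1 animal, not pooled, dissociated with papain, fixed, and barcoded by split-pool combinatorial indexing. The groups are 3 Insm1 mutants (Atoh1Cre with homozygous floxed Insm1), 2 Insm1 controls (homozygous floxed Insm1, no Cre), 3 Tead1/2 mutants (Atoh1Cre with homozygous floxed Tead1 and Tead2) and 2 Tead1/2 controls (both genes floxed, no Cre). Floxed alleles are thus shared by the mutants and controls of a line, and Cre is present in mutants only. Atoh1Cre acts in the granule cell lineage, so other cerebellar cells of a mutant are mostly not recombined. In every group number 1 was dissected with all lobules and the other numbers without lobules IX and X. Going by the series title, the question is whether muscle fate is actively repressed in this neural lineage. Here the questions are what these cells express, what neural transcripts they hold, and whether those of the Insm1 and Tead1/2 mutants differ.

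Skeletal muscle forms when myogenic basic helix-loop-helix factors such as Myod1 and Myog, with Mef2 proteins, switch on genes of the sarcomere, the repeated unit of thick myosin and thin actin filaments. Insm1 is a zinc-finger repressor of newly formed neurons and endocrine cells. Tead1 and Tead2 are DNA-binding partners of YAP and TAZ, and TEAD proteins bind a sequence called the MCAT motif, first described in muscle promoters. Granule cells, the small excitatory neurons of the cerebellum, arise after birth from Atoh1-positive progenitors and express Zic, Neurod1, Pax6, Nfia and Nfib.

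The promoters of the genes that choose or lead these cells are shown because 3 short motifs tied to muscle transcription can be read in them. Windows of 150 bases before the gene start, written 5′ to 3′ on the gene's strand, come from RefSeq on build GRCm38.p6, and capitals mark an exact match. The motifs searched on both strands were CATTCC (the core of MCAT, GGAATG on the other strand), CAGCTG (an E-box, the kind of site bound by myogenic helix-loop-helix factors, its own reverse complement) and a MEF2 site (CTA and TAG with any 4 bases between them, also its own reverse complement). No motif contains another. Acta1 (chr8:123894776-123894925, minus strand) and Myl1 (chr1:66945057-66945206, minus strand) hold an MCAT core, Mybpc1 (chr10:88605153-88605302, minus strand) and Mylpf (chr7:127211458-127211607, plus strand) an E-box, and Klhl41 (chr2:69669970-69670119, plus strand) an E-box and a MEF2 site.
Acta1: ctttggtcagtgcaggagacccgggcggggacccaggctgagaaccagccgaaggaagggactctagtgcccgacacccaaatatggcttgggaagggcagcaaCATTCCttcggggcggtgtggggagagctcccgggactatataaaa
Myl1: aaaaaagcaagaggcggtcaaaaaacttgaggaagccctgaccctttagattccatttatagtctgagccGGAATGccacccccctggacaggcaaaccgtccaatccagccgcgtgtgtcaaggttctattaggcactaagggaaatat
Mybpc1: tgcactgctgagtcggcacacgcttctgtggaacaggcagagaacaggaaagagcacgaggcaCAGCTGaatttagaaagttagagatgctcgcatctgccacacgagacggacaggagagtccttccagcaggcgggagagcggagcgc
Klhl41: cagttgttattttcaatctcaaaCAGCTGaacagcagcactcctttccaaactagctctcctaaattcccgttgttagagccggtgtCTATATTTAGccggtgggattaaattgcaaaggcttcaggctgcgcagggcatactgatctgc
Mylpf: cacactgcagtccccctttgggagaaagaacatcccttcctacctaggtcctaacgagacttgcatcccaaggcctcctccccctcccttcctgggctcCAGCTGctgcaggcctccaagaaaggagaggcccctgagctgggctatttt
Over 250 bases before the start, 10 of the 12 genes matched the table, and 2 held MCAT (20%), 4 the E-box (40%) and 2 MEF2. Of the 50 further genes that lead these cells (defined below with their values), 35 matched, with MCAT in 5 (14.3%), the E-box in 18 (51.4%) and MEF2 in 5 (14.3%). Over all 27,025 genes of the table these shares were 14.4% for MCAT, 14.7% for the E-box and 3.70% for MEF2. A match describes letters in a window, not a bound site.

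Libraries held 98,416,728 to 226,631,912 UMIs over all barcodes, and 91.7% to 94.3% of them lay in the 4779 to 10,711 barcodes past the depth filter. No cell barcode was shared between libraries (0 of the barcodes). By Xist, 1 of 2 Insm1 controls, 2 of 3 Insm1 mutants, 2 of 2 Tead1/2 controls and 1 of 3 Tead1/2 mutants were female, so groups were not balanced for sex. The cells compared below as "other barcodes" are the 50,587 with UMIs of at most 1 of the 12 genes.

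Sarcomere-positive cells were frequent in both kinds of mutant and rare in controls. They made up 15.8%, 18.3% and 22.5% of barcodes in Insm1 mutants 1, 2 and 3 (1142, 1397 and 1077 cells), against 1.02% and 2.61% in Insm1 controls 1 and 2 (109 and 224 cells). In Tead1/2 mutants 1, 2 and 3 they made up 23.8%, 38.6% and 26.0% (1787, 3759 and 1979 cells), against 0.527% and 0.873% in Tead1/2 controls 1 and 2 (51 and 56 cells). Every mutant lay above every control, and every Tead1/2 mutant above every Insm1 mutant. The counting intervals of the nearest mutants of both lines overlapped: the exact Clopper-Pearson 95% interval was 21.4% to 23.7% in Insm1 mutant 3 and 22.8% to 24.8% in Tead1/2 mutant 1.

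**Figure D1:**
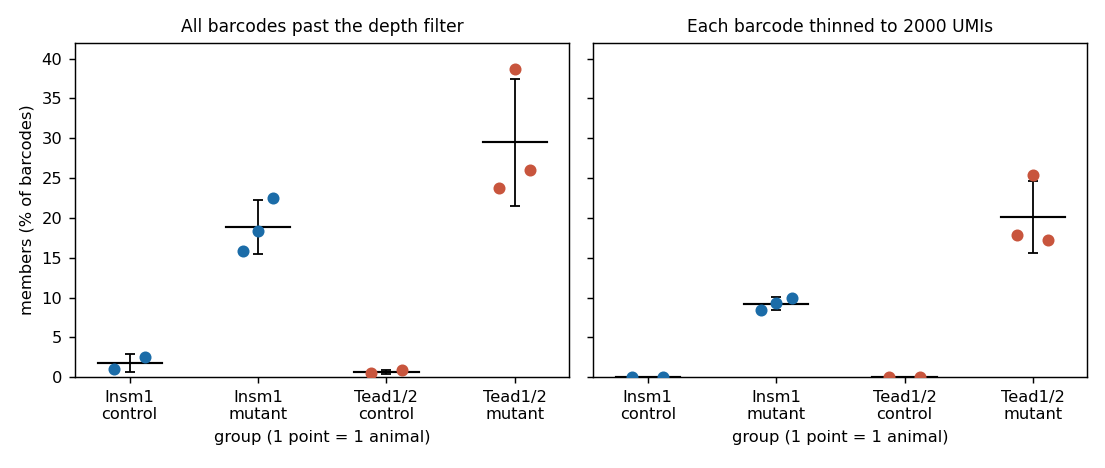
Share of barcodes past the depth filter that are sarcomere-positive ("members", percent, 1 point per animal) in each group, left as counted and right with each barcode thinned to 2000 UMIs; lines are means and bars SD. As counted, controls sit between 0.527% and 2.61%, Insm1 mutants between 15.8% and 22.5%, and Tead1/2 mutants between 23.8% and 38.6%.

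The mean share was 18.9% ± 3.40 (SD, n = 3) in Insm1 mutants and 1.81% ± 1.12 (n = 2) in Insm1 controls, a difference of 17.1 percentage points. In the Tead1/2 line it was 29.5% ± 8.01 (n = 3) against 0.700% ± 0.245 (n = 2), a difference of 28.8 points. Between the mutants the difference was 10.6 points. These shares count the 12 genes that define the cells, so they are a description with no test. The mutants of both genes come from different mouse lines, so gene and line cannot be told apart. Without Tead1/2 mutant 2 this difference was 6.01 points.

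Most control cells that met the rule differed from mutant ones in depth and in content. The median over all control cells that met it was 64,748.5 to 149,522 UMIs per cell, against 16,348 to 42,327 in mutants and 5656 to 7852 in other barcodes. In controls, cells of at least 50,000 UMIs made up 95 of 109, 205 of 224, 40 of 51 and 35 of 56 sarcomere-positive cells. In those deep control cells the 12 genes together stood at 133, 80.4, 77.0 and 86.7 CPM (UMIs of a gene or list per 1,000,000 UMIs), against 59.7 to 63.0 CPM in other barcodes of 1000 to 10,000 UMIs of the controls and means of 102 and 145 CPM in those of the mutants. A few control cells were rich in the 12 genes. At 5000 to 10,000 UMIs, 2 cells each of Insm1 controls 1 and 2 held 19,669 and 44,255 CPM. All 12 genes were found in 2 cells of Insm1 control 1 (62,418 CPM) and 1 cell of Insm1 control 2 (10,326 CPM). With every barcode thinned at random to 2000 UMIs the rule still found 8.44%, 9.31% and 9.99% of Insm1 mutant barcodes and 17.8%, 25.4% and 17.2% of Tead1/2 mutant barcodes, and only 0.0473% and 0.0240% in Insm1 controls and 0 and 0.0788% in Tead1/2 controls. Among barcodes of 1000 to 10,000 UMIs, a limit chosen after seeing the data for these shares, they were 5.78%, 7.36% and 6.69%, and 10.9%, 16.5% and 11.5%, with 0.0391% to 0.134% in controls. All levels given from here on come from the 6 mutant libraries.

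In the mutants deeper sarcomere-positive cells held more neural RNA. At 5000 to 10,000 UMIs the 12 genes stood at 36,210, 36,364 and 24,445 CPM in sarcomere-positive cells of Insm1 mutants 1 to 3, and at 47,873, 34,711 and 42,512 CPM in those of Tead1/2 mutants 1 to 3. At 50,000 UMIs and above they fell to 9733, 11,414 and 8719 CPM in the Insm1 mutants, while in the Tead1/2 mutants they stood at 43,384, 27,314 and 24,601 CPM. A list of 32 granule neuron genes moved the other way, from 10,920, 11,417 and 12,558 CPM to 23,298, 22,683 and 21,419 CPM in Insm1 mutants, and from 10,238, 11,640 and 10,625 CPM to 14,407, 17,197 and 16,485 CPM in Tead1/2 mutants. The share of barcodes that met the rule also rose with depth, from 7.10% to 18.1% at 5000 to 10,000 UMIs to 79.0% to 95.9% at 50,000 and above. Whether such deep barcodes hold 1 cell or several was not tested, and no doublets were removed. Levels of genes below are those of the shallow cells (1000 to 10,000 UMIs) unless all depths are named, and so describe the smaller part of the sarcomere-positive cells. Over all depths the list sums differed: granule neuron genes stood at 21,571 and 15,247 CPM (means of Insm1 and Tead1/2 mutants), pan-neuronal genes at 21,935 and 15,703 CPM, myogenic regulators at 2302 and 3607 CPM, other sarcomere genes at 3344 and 7281 CPM and fusion genes at 485 and 699 CPM. Insm1 mutants 1 to 3 held 277, 331 and 167 shallow cells and Tead1/2 mutants 1 to 3 held 561, 808 and 430, at medians of 6175, 5564 and 6125 UMIs and of 6557, 6573 and 6816.5 UMIs, higher in each Tead1/2 library.

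**Figure D2:**
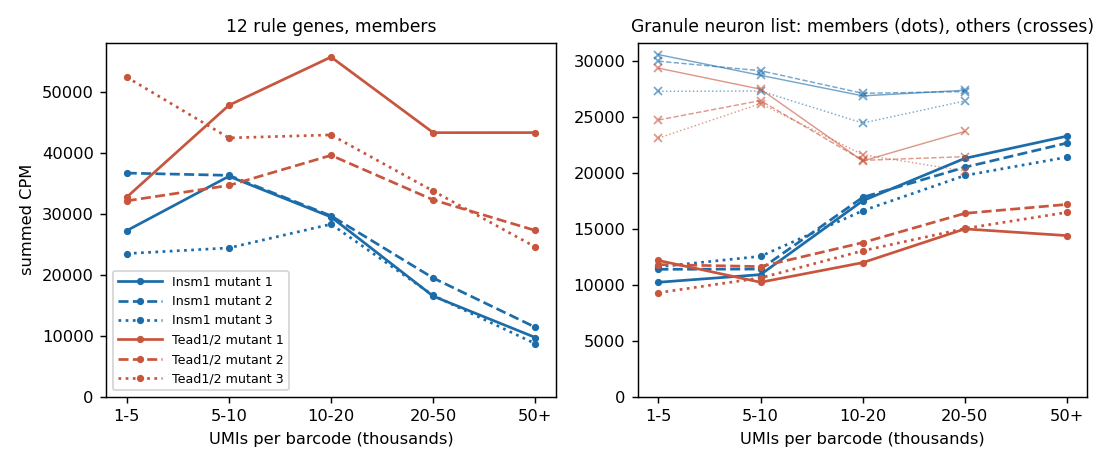
Summed level (CPM) in sarcomere-positive cells ("members") of the 6 mutant libraries by UMIs per barcode, for the 12 rule genes (left) and the granule neuron list (right, crosses: other barcodes, drawn where a class held enough of them). The 12-gene level of the Insm1 mutants is 24,445 to 36,364 CPM at 5000 to 10,000 UMIs and 8719 to 11,414 CPM at 50,000 UMIs and above.

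These cells were chosen by UMIs of the 12 genes, so the levels of those genes describe the choice and carry no test. Cells just inside the limit, with 5 of the 12 genes, numbered 157 in Insm1 mutant 1 and 398 in Tead1/2 mutant 2 and held 1522 and 2419 CPM of the 12 together. Cells just outside, with 4, numbered 230 and 599 and held 788 and 1417 CPM. All 12 genes were detected in 365, 447 and 338 cells of the Insm1 mutants and in 833, 1578 and 778 cells of the Tead1/2 mutants. Ttn, which encodes the giant elastic filament titin, stood at 25,184, 25,482 and 17,727 CPM in Insm1 mutants 1 to 3 and at 33,306, 25,471 and 32,840 CPM in Tead1/2 mutants 1 to 3, against means of 55.7 and 97.4 CPM in other barcodes. It gave most UMIs of the 12-gene sum in every mutant library. Myh3, the myosin heavy chain of embryonic muscle, stood at 3255, 4143 and 2393 CPM in the Insm1 mutants and at 5834, 3823 and 4571 CPM in the Tead1/2 mutants. Actc1, an actin made in heart and in forming skeletal muscle, was at 763, 686 and 698 CPM and at 481, 572 and 601 CPM. Acta1, the actin of mature skeletal muscle, was at 195, 227 and 74.5 CPM and at 170, 107 and 127 CPM. UMIs are not scaled to transcript length, so levels of different genes are not compared with each other.

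The 50 genes outside the 12 that were highest in sarcomere-positive cells relative to other barcodes are called the programme genes. They were ranked over 6662 genes by the smallest of the 6 per-library ratios, over cells of all depths, so they too are a description with no test at P7. Of the 50, 31 belong to muscle lists written for this work and 19 to none. Trdn, which encodes triadin of the calcium release complex, ranked first, at least 68.1-fold higher in each mutant library, and stood at 299, 274 and 152 CPM in shallow cells of Insm1 mutants 1 to 3 and at 395, 224 and 274 CPM in Tead1/2 mutants 1 to 3. It was at 0.659 to 2.57 CPM in other barcodes. Sarcomere genes follow: Tnnt2 (the troponin T of heart and embryonic skeletal muscle, smallest ratio 50.9), Mypn (myopalladin of the Z-disc and I-band, 49.0), Myom2 and Myom3 (M-band proteins, 48.6 and 47.5), Myh8 (perinatal myosin heavy chain, 46.1), Mylpf (fast regulatory light chain, 39.4), Mylk4 (a myosin light chain kinase family member, 39.3), Tpm2 (beta-tropomyosin, 38.1), Ldb3 (a Z-disc protein, 32.2), Des (desmin, the muscle intermediate filament, 30.6) and the kinase-like genes Alpk3 and Alpk2 (28.3 and 28.2). Casq2 (calsequestrin, 30.8) and Atp2a1 (the fast-muscle calcium pump, 28.2) belong to the calcium store. Tmem182 (34.0) encodes a muscle membrane protein.

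Some leading genes are not known as sarcomere genes. Pkhd1, a gene of ciliated kidney and bile duct cells, ranked second (54.8) and stood at 706, 746 and 446 CPM in Insm1 mutants and at 1543, 932 and 837 CPM in Tead1/2 mutants, with 4.71 to 7.48 CPM in other barcodes. H19, an imprinted non-coding RNA abundant in fetal muscle (39.6), stood at 2252, 2099 and 1268 CPM and at 2078, 1553 and 1726 CPM. Trp63, best known from stratified epithelium (32.9), was at 151, 146 and 46.7 CPM and at 164, 81.5 and 121 CPM, and Best3, a chloride channel gene (33.5), was at 180 to 244 CPM over the 6 libraries. The imprinted non-coding RNA Rian stood at 2621 to 3683 CPM, against means of 61.2 and 60.4 CPM in other barcodes. Acta2, an actin of smooth muscle and of early skeletal muscle, closed the list at rank 50 with 139 to 174 CPM, against 0.377 to 1.67 CPM. The ranking by the smallest of the 6 ratios fixed in advance that these genes stand above other barcodes in each library.

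Background for such counts is needed, because cells chosen for high muscle transcripts must be lower elsewhere. The 7808 genes compared in shallow cells had a mean of at least 20 CPM in sarcomere-positive cells or in other barcodes. Of them 34.3% were higher than in the other barcodes in 6 of 6 mutant libraries and 41.1% lower in 6 of 6. The median log2 ratio was -0.06. At a fold of 4 or more in all 6, 383 genes were higher and 405 lower. The list counts below also take in genes under 20 CPM, so the sets are not alike.

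Among regulators of muscle fate, 14 of 20 genes were higher in 6 of 6 libraries and 4 lower. Myog, which drives terminal muscle differentiation, stood at 516, 538 and 584 CPM in Insm1 mutants 1 to 3 and at 264, 490 and 496 CPM in Tead1/2 mutants 1 to 3, against means of 15.4 and 8.91 CPM in other barcodes. After thinning to 2000 UMIs it was found in 54.4% to 63.6% of Insm1 mutant cells and in 38.8% to 53.9% of Tead1/2 mutant cells. Microglia-like barcodes, which should lack Myog, had it in 0 to 1.92%. These microglia-like barcodes were drawn from the other barcodes, so barcodes with more sarcomere transcripts had been left out beforehand. The low Myog share in them is thus partly fixed by that choice and is no free measure of the background. Myod1, the determination factor, stood at 35.7, 45.1 and 49.7 CPM and at 24.6, 29.2 and 32 CPM, against 10.2 and 6.79 CPM. Myf5 and Pax7, factors of muscle precursors and satellite cells, were at 0 in 5 of 6 libraries each, with 0.276 CPM (Myf5) in Tead1/2 mutant 1 and 0.192 CPM (Pax7) in Tead1/2 mutant 2. Mef2c stood at 2120 to 2974 CPM, and microglia-like barcodes, a type that also makes it, held means of 1922 and 2079 CPM. Tead4, the TEAD family member of myoblasts, was at 264, 229 and 231 CPM in Insm1 mutants and at 306, 301 and 328 CPM in Tead1/2 mutants, against 10.4 and 10.0 CPM in other barcodes. Rbm24, a muscle splicing regulator, was at 405 to 471 CPM.

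Genes of cell fusion and muscle adhesion were higher in 6 of 8 cases and lower in 0. Mymk (myomaker), a membrane protein needed for myoblasts to fuse, stood at 188, 184 and 159 CPM and at 146, 167 and 197 CPM, against 1.58 and 1.83 CPM in other barcodes. Mymx (myomerger), its partner, stood at 70.8, 86.4 and 76.5 CPM and at 34.8, 53.9 and 61.6 CPM. Jam3, an adhesion molecule, was at 555 to 834 CPM. Both transcripts stood above other barcodes in all 6 mutants.

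Of 52 further sarcomere genes 37 were higher in 6 of 6 and 1 lower, and their sum was 6555 and 7394 CPM (means of Insm1 and Tead1/2 mutants) against 945 and 600 CPM. Tnni1, the slow troponin I, stood at 398, 419 and 299 CPM and at 394, 408 and 471 CPM, and Tnnt1, the slow troponin T, at 417, 403 and 269 CPM and at 393, 319 and 343 CPM. Of 23 genes of excitation-contraction coupling, by which membrane voltage releases calcium, 20 were higher and 0 lower. Among them Cacna1s, the voltage sensor, stood at 167, 147 and 89.4 CPM and at 234, 133 and 144 CPM, against 4.31 to 6.27 CPM.

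At the nerve-muscle contact the fetal receptor subunit was above other barcodes and the adult one near 0. Of 11 neuromuscular junction genes 8 were higher and 0 lower. Chrng, the fetal gamma subunit of the acetylcholine receptor, stood at 46.1, 44.6 and 39.7 CPM and at 66.2, 44.3 and 40.2 CPM, against at most 0.565 CPM in other barcodes. Chrne, the adult epsilon subunit, stood at 0, 4.46 and 0.994 CPM and at 0.276, 0.192 and 0.341 CPM. Musk, the kinase that gathers receptors, was low, at 0.576 to 11.7 CPM. Of 14 membrane and cytoskeleton genes 10 were higher and 1 lower, and of 14 metabolic genes 12 were higher and 0 lower.

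Genes of later muscle were split in shallow cells. Of 10 genes that rise in postnatal muscle 5 were higher there in 6 of 6 libraries: Mylk4, Atp2a1, Pygm, Ckm and Mb. Over all depths 10 of 10 were higher in 6 of 6, with a sum of 326 and 856 CPM against 8.42 and 11.7 CPM in other barcodes. The levels that follow are again those of shallow cells. Ckm, the muscle creatine kinase, stood at 53.0, 54.1 and 16.9 CPM and at 39.5, 28.6 and 37.5 CPM. The adult fast myosins were near zero: Myh1 at 0 to 1.11 CPM, Myh2 at 0 to 0.557 CPM and Myh4 at 0 to 5.11 CPM. Of 10 cardiac genes 8 were below 1 CPM in all 6 libraries and 5 of these at 0. The other 2, Myh6 (0.994 to 5.52 CPM) and Gata4 (1.11 to 3.06 CPM), were higher than in other barcodes (at most 0.251 and 0.201 CPM) in 6 of 6, at these low levels, and are named after their values were seen. Of 8 satellite cell genes 0 were higher and 6 lower. Of 8 fibroblast genes 6 were lower in 6 of 6 libraries and 1 higher, with a median log2 ratio of -3.04. The list summed to 357 and 483 CPM against 377 and 542 CPM in other barcodes of 1000 to 10,000 UMIs. Most of the sum in sarcomere-positive cells was Lama2, the gene that was higher (256 to 483 CPM), while Col1a1 stood at 0.994 to 16 CPM against 24.8 to 80.5 CPM. Of 10 smooth muscle and mural genes 5 were lower in 6 of 6 libraries and 2 higher, Acta2 and the potassium channel subunit gene Abcc9, with a median log2 ratio of -0.33. Those 2 made up most of the list's sum of 299 and 392 CPM, against 74.9 and 129 CPM in other barcodes, while Myh11, the smooth muscle myosin, was at 0 to 1.36 CPM.

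**Figure D3:**
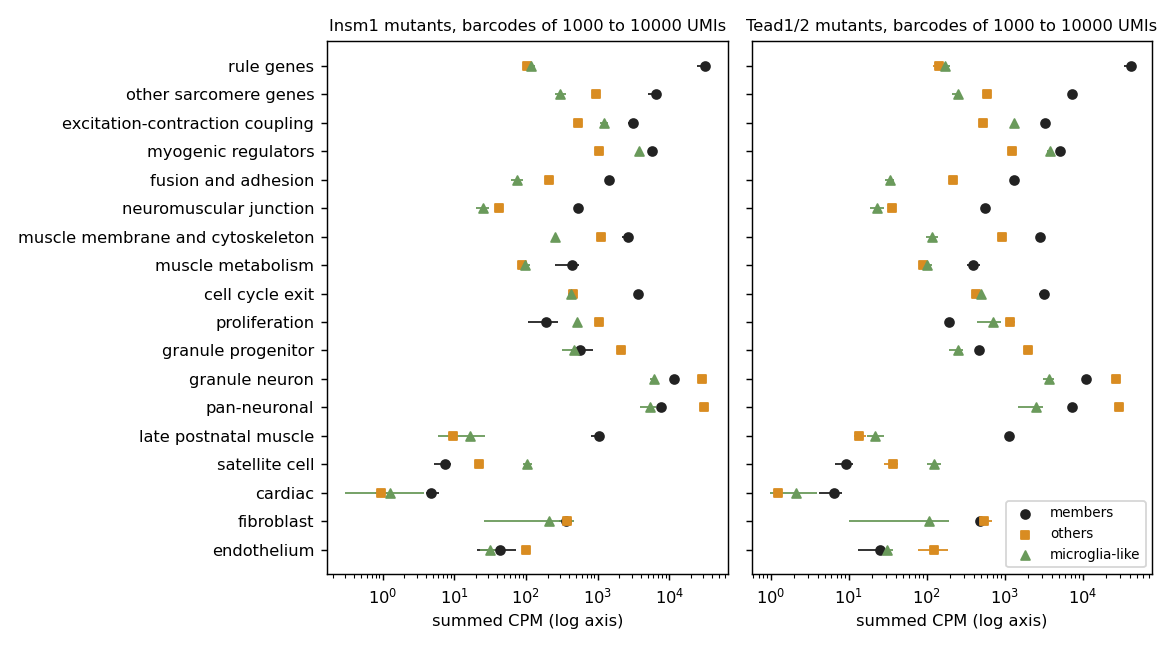
Summed level of 18 gene lists (CPM, log axis) in sarcomere-positive cells ("members"), other barcodes and microglia-like barcodes of 1000 to 10,000 UMIs; points are means of 3 mutant libraries and bars run from the lowest to the highest. The 12 rule genes reach 24,299.5 to 45,764 CPM against 96.6 to 179 CPM in other barcodes, and the granule neuron list 10,510.5 to 12,411 CPM against 25,764 to 29,379 CPM.

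In shallow cells genes of cell division were low, and genes of cell cycle exit were split. All 12 proliferation genes were lower in 6 of 6 libraries, with a sum of 191 and 191 CPM against 1056 and 1180 CPM. Over all depths the sum was 1181 and 889.5 CPM against 1358 and 1395 CPM in other barcodes, with 10 of 12 genes lower. Mki67, a protein of dividing cells, stood at 61.6, 31.2 and 115 CPM and at 77.3, 72.7 and 74.9 CPM, against means of 440 and 506 CPM, and over all depths at 301 to 472 CPM. Of 8 genes of cell cycle exit 5 were higher in 6 of 6 shallow libraries and 2 lower, Cdkn1b (p27, 36.7 to 61.6 CPM against 65 to 90.4 CPM) and Cdkn2c (p18, 1.36 to 6.13 CPM against 10.2 to 12.8 CPM). Cdkn1c (p57), a cyclin-dependent kinase inhibitor of differentiating muscle, stood at 1513, 1556 and 1693 CPM and at 986, 1576 and 1597 CPM, against 66.0 and 41.6 CPM. Cdkn1a (p21) was at 425, 425 and 306 CPM and at 270, 236 and 267 CPM, and Rb1, the retinoblastoma protein that holds cells out of the cycle, at 1364 to 1529 CPM against 254 and 246 CPM. Cdkn1c was found in 69.8% to 80.8% of thinned Insm1 mutant cells and 65.7% to 75.9% of Tead1/2 mutant cells, against 3.54% to 7.45% of other barcodes.

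Neural transcripts were kept at a lower level, and not alike for every gene. Of 32 granule neuron genes 29 were lower in 6 of 6 libraries and 1, Sema6a, was higher, while the list still stood at 11,544 and 10,896 CPM, against 28,686 and 26,647 CPM in other barcodes and 6059 and 3666 CPM in microglia-like barcodes. These last values are no pure background, since microglia-like barcodes had some genes of the list often at 2000 UMIs (Nfia in 66.3% to 80.9%, Chd7 in 53.4% to 75.8%) and others seldom (Nfib in 22% to 31%). All 12 granule progenitor genes but 2 were lower in 6 of 6, and 22 of 23 pan-neuronal genes were lower and 0 higher. The pan-neuronal sum was 7591 and 7374 CPM, against 30,297 and 29,202 CPM in other barcodes and 5449 and 2531 CPM in microglia-like ones.

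Sema6a, Reln, Ncam1, Nfia, Nfib, Pax6, Zic1 and Dcx stood above the microglia-like level in each of the 6 libraries. Sema6a, a guidance protein of migrating granule cells, stood at 1690, 1618 and 1751 CPM in Insm1 mutants and at 1488, 1618 and 1586 CPM in Tead1/2 mutants, against 1132 and 960 CPM in other barcodes and 176 and 92.3 CPM in microglia-like ones. Reln, the secreted guidance protein of granule cells, stood at 1218, 1135 and 1080 CPM and at 1321, 1427 and 1295 CPM, against 2579 and 2365 CPM and, in microglia-like barcodes, 459 and 205 CPM. Ncam1, an adhesion molecule that both neurons and muscle make, was at 651 to 1134 CPM against 919 and 969 CPM. Nfib, a factor of granule differentiation, was at 1904, 2052 and 2351 CPM and at 2105, 2277 and 2056 CPM, against 5896 and 5880 CPM and 953 and 513 CPM. Of these 4 genes only Sema6a was above other barcodes by CPM in all 6 libraries.

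Equal depth was also tried for single cells. After thinning to 2000 UMIs Sema6a was found in 84.6% to 92.7% of Insm1 mutant cells and 84.4% to 88.0% of Tead1/2 mutant cells, and in 5.71% to 17.3% of microglia-like barcodes. Reln, lower than in other barcodes by CPM, was found in 77.5% to 79.0% of Insm1 and 79.0% to 82.8% of Tead1/2 mutant cells. Other barcodes had Reln less often, in 68.0% to 75.0% and 60.1% to 67.8%. Pax6, a factor of the granule lineage, was found in 24.6% to 25.2% and 22.0% to 29.2%, against 4.41% to 9.62% of microglia-like barcodes and 38.9% to 44.3% of other barcodes. Zic1 was found in 21% to 23.8% and 15.8% to 22.8%, against 4.57% to 11.5% and 41.9% to 54.3%. Dcx, a microtubule protein of migrating neurons, was found in 32.5% to 38.4% and 41.1% to 43.6%, against 2.45% to 13.5% and 46.3% to 53.7%. All 3 kinds of barcode in these shares had 1000 to 10,000 UMIs, with medians per library of 5564 to 6816.5 in sarcomere-positive cells, 5087 to 6429.5 in other barcodes and 3683 to 5175 in microglia-like barcodes before thinning, and 5 to 50 sarcomere-positive cells, 64 to 90 other barcodes and 0 to 12 microglia-like barcodes per library had fewer than 2000 UMIs and were left out.

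Not every neuronal gene stood clear of the background. Rbfox3 (NeuN), a marker of maturing neurons, was found in 12.9% to 19.9% of Insm1 mutant cells and 10.5% to 15.5% of Tead1/2 mutant cells, and in 12.1% to 23.9% and 6.92% to 9.80% of microglia-like barcodes. In Tead1/2 mutants the Rbfox3 share lay above that of microglia-like barcodes, and in Insm1 mutants the ranges overlapped. Other barcodes had it in 59.5% to 73.4%. Gabra6 and Slc17a7, genes of mature granule cells, were at 0 and at 1.99 to 5.57 CPM.

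**Figure D4:**
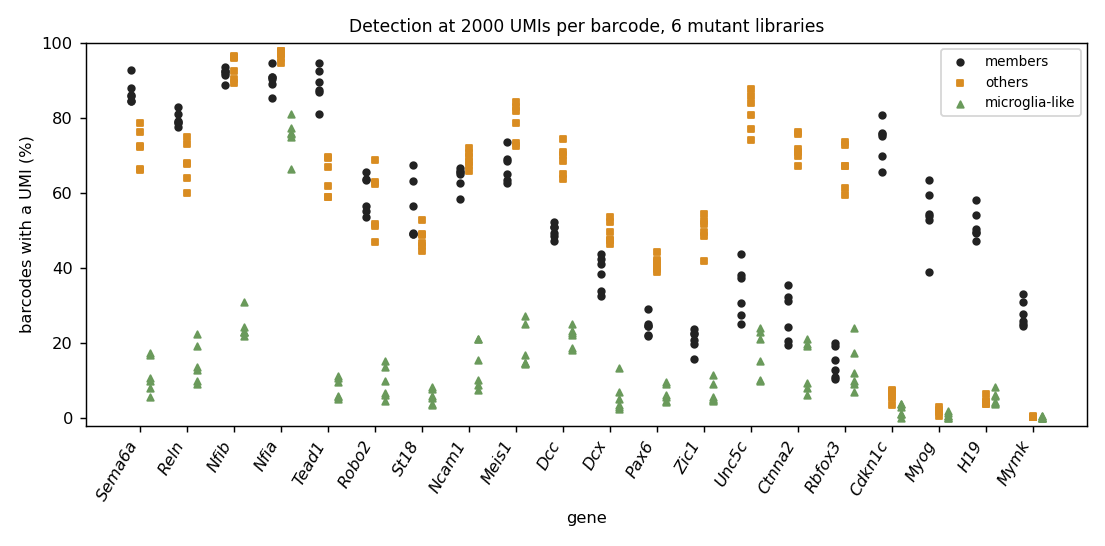
Share of barcodes of 1000 to 10,000 UMIs with at least 1 UMI of each gene after thinning to 2000 UMIs (percent), for sarcomere-positive cells ("members"), other barcodes and microglia-like barcodes, 1 point per mutant library. Sema6a reaches 84.4% to 92.7% in sarcomere-positive cells, and Rbfox3 lies at 10.5% to 19.9%, against 6.92% to 23.9% in microglia-like barcodes.

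Within shallow cells at 2000 UMIs those with more of the 12 genes held less granule RNA. The median cell held 54, 59 and 35 UMIs of the 12 genes in Insm1 mutants 1 to 3 and 74, 51 and 67 in Tead1/2 mutants 1 to 3, with 18 to 22 UMIs of the granule list. Spearman's rho between both sums across cells was -0.50, -0.50 and -0.46, and -0.61, -0.49 and -0.51, given as a description, since both sums share the same fixed 2000 UMIs. For the pan-neuronal list rho was weaker, at -0.19, -0.0740 and -0.29, and at -0.25, -0.26 and -0.18, and its mean fell at each step over the groups below only in Insm1 mutant 3 of the 6 libraries. Split into 4 equal groups by UMIs of the 12 genes, cells of the lowest group held a mean of 29.7 to 33.3 granule UMIs, those of the highest 12.9 to 16.5, and other barcodes 51.5 to 59.5. The lowest group thus already lay below the other barcodes in each of the 6 libraries.

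Nearly every sarcomere-positive cell held several granule genes. At 2000 UMIs, 99.1%, 99.3% and 99.4% of those of Insm1 mutants 1 to 3 had UMIs of 3 or more granule neuron genes, and 97.6%, 99.2% and 98% of those of Tead1/2 mutants 1 to 3. The means were 99.3% ± 0.157 and 98.3% ± 0.807 (SD, n = 3 each), a difference of -1.01 percentage points with a two-sided exact permutation p of 0.2, where 0.1 is the smallest possible, so it does not pass. This share lies close to its upper limit. With 5 or more genes required, the mutants did not overlap: 96.8%, 96.0% and 97.7% of cells of Insm1 mutants and 87.6%, 94.1% and 89.8% of those of Tead1/2 mutants passed at 2000 UMIs. The same held in shallow cells (93% to 96.0% against 88.6% to 91.3%) and at 1000 UMIs (85.8% to 89.97% against 68.1% to 80.2%). Other barcodes of both mutants did not overlap either (96.1% to 96.6% against 87.2% to 91.7% at 2000 UMIs), and the differences at 5 genes were not tested. For 3 genes, other barcodes had 94.5% to 99.0% and microglia-like barcodes 46.4% to 75.0%. Median depths before thinning were 16,553 to 43,129, 5698 to 7982 and 4154 to 7993 UMIs. In shallow sarcomere-positive cells alone the shares were 97.8%, 99.6% and 100%, and 98%, 98.7% and 98.1%.

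The targeted genes were read in the same cells. Insm1 stood at 1.15, 1.11 and 0.994 CPM in shallow cells of Insm1 mutants and at 9.66, 20.5 and 17.4 CPM in those of Tead1/2 mutants, against means of 12 and 65.1 CPM in other barcodes. Tead2 stood at 40.3, 35.1 and 51.7 CPM in Insm1 mutants and at 3.04, 3.26 and 3.06 CPM in Tead1/2 mutants. Tead1 stood at 1348, 1292 and 1404 CPM in Insm1 mutants and at 2620, 2888 and 2812 CPM in Tead1/2 mutants, so its total UMIs were not lower in the mutants that carry the floxed gene. UMIs of a gene are counted over its whole transcript, and those outside the deleted exons check nothing. The repressor St18, of the Myt1 family, was at 742, 701 and 860 CPM and at 533, 486 and 555 CPM. Wwtr1 (TAZ), a TEAD cofactor, was at 191, 184 and 221 CPM and at 310, 257 and 245 CPM, against 36.9 and 44.5 CPM. In the fit of shallow cells described below, Insm1 and Tead1 were called higher and Tead2 and St18 lower in Tead1/2 mutants. Wwtr1 was not called there. These are the calls among 16 tested genes of a list of repressors and their partners. Over all genes of that fit 0.783% were called higher and 0.57% lower.

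Counts summed over cells per library were compared between the 3 Tead1/2 and the 3 Insm1 mutants in edgeR. Over cells of all depths 21,145 genes were tested, and at an adjusted p (FDR) under 0.05 14.7% were higher (3109 genes) and 15.7% lower (3314 genes) in Tead1/2 mutants. Muscle genes were higher and neural genes lower in this fit. Of the 50 programme genes 49 were called higher (median log2 difference 1.25), of 52 other sarcomere genes 49 higher and 1 lower (1.43), of 23 coupling genes 19 higher and 1 lower, of 20 myogenic regulators 12 higher and 2 lower (0.45), and of 11 junction genes 10 higher. Of 32 granule neuron genes 26 were lower and 1 higher (-0.55), of 23 pan-neuronal genes 21 lower (-0.54) and of 8 Purkinje cell genes 8 lower (-1.80), against a median of 0.00814 over all genes tested. The median mitochondrial share of UMIs in these cells moved with the line, at 0.992%, 0.787% and 0.921% in Insm1 mutants and at 2.00%, 1.22% and 1.15% in Tead1/2 mutants, and so did that of other barcodes (0.555%, 0.448% and 0.573%, and 0.899%, 0.619% and 0.606%). Its part in the result was not tested. Other barcodes of the same animals, fitted alike over all depths, had 11 of 32 granule neuron genes lower and 0 higher in Tead1/2 mutants. Of 23 pan-neuronal genes 8 were lower there and 1 higher. Over all genes of that fit 5.30% were lower and 9.29% higher.

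**Figure D5:**
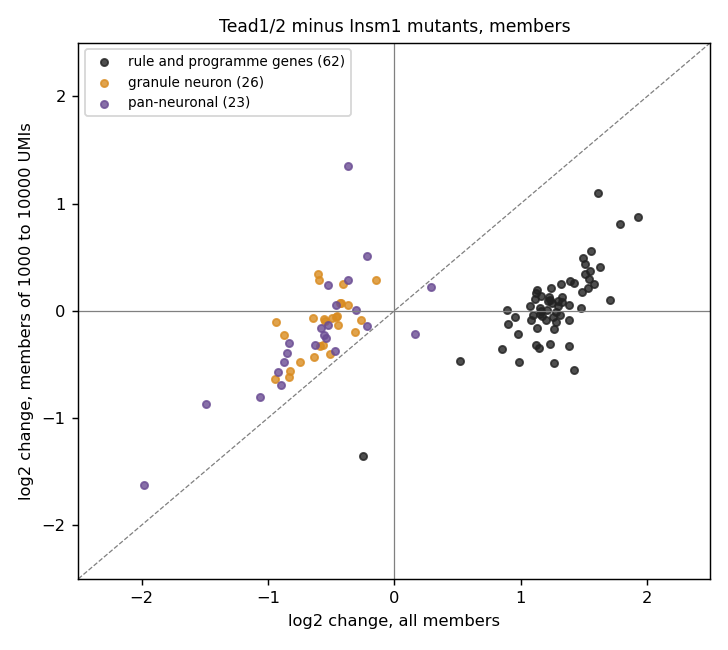
Log2 difference between Tead1/2 and Insm1 mutants in sarcomere-positive cells ("members") of all depths (x axis) and of 1000 to 10,000 UMIs (y axis), 1 point per gene of 3 sets, with the dashed line at equal values. Programme genes have a median of 1.25 over all depths and 0.0333 in shallow cells, and granule neuron genes -0.55 and -0.0907.

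Most of these calls were absent in cells of 1000 to 10,000 UMIs, a range that narrows the depth without equalising it, where the summed libraries were also smaller (1,006,317 to 5,212,897 UMIs against 45,523,294 to 152,298,464). In cells of 1000 to 10,000 UMIs 11,235 genes were tested and 0.783% were called higher (88 genes) and 0.57% lower (64 genes) in Tead1/2 mutants. Programme genes were higher in 0 and lower in 2 of 50 (5430431A17Rik and Trim55), with a median log2 difference of 0.0333. Granule neuron genes were called in 0 of 26, with 0 of 10 progenitor genes and 0 of 21 coupling genes. For these lists the median cell of the all-depth fit was deeper in Insm1 mutants 1 and 2 (26,304.5 and 27,220 UMIs) and 3 (42,327) than in Tead1/2 mutants 1 to 3 (16,348, 25,324 and 22,078). Over all depths the Purkinje list summed to 3816 and 2282 CPM, the astroglial list to 1053 and 738 CPM and the microglia list to 236 and 507 CPM in cells of Insm1 and Tead1/2 mutants, and in shallow cells the Purkinje list stood at 1923 and 1600 CPM. Their part in the result was not tested. With every cell thinned to 1000 UMIs, a setting added after seeing the data that keeps deep cells, 1292 of 10,908 genes were called: 43 of 50 programme genes were higher and 1 lower (median log2 difference 0.72), 29 of 37 other sarcomere genes higher and 1 lower, and 14 of 27 granule neuron and 16 of 23 pan-neuronal genes lower. That fit equalises UMIs per cell, not the mix of deep and shallow cells. Within 10,000 to 20,000 UMIs the granule neuron list stood at 17,522, 17,829 and 16,630 CPM in cells of Insm1 mutants 1 to 3. In those of Tead1/2 mutants 1 to 3 it stood at 11,992, 13,780 and 13,052 CPM. Other barcodes of that depth held 24,468 to 27,127 CPM in Insm1 mutants and 21,080 to 21,639 CPM in Tead1/2 mutants. The cause of these differences was not tested. Of the 152 genes called in shallow cells 113 were also called over all depths, 103 of them with the same sign.

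Single genes differed between the mutants in shallow cells. Myof (myoferlin, a calcium-binding membrane protein of fusing myoblasts) stood at 10.4, 10.6 and 11.9 CPM in shallow cells of Insm1 mutants and at 84.5, 69.1 and 61.0 CPM in those of Tead1/2 mutants (log2 difference 2.73, SE 0.19, edgeR FDR 9.58e-05). The groups were far apart, and other barcodes held 3.56 to 4.71 and 8.26 to 10.7 CPM. Ablim1, an actin-binding LIM protein, stood at 23.6, 34.6 and 34.8 CPM and at 160, 132 and 81.0 CPM (2.04, FDR 0.0048). Sema3e, a secreted guidance protein, stood at 42, 30.1 and 30.8 CPM and at 93.3, 85.9 and 99.8 CPM (1.43, SE 0.15, FDR 0.00225). Crip2, a LIM protein, Ptpn14, a phosphatase that binds YAP, Tmc1, Lrrc4b, Trpm3, Ndrg1, Gm17135 and Gm31819 were also higher, by log2 values of 1.32 to 2.55. Of these, Trpm3 was not called over all depths (0.39, edgeR FDR 0.519), where its sign turned without Tead1/2 mutant 3. Of the fusion and adhesion list Cdh15 (M-cadherin, log2 difference 0.60) and Itga7 (the laminin receptor subunit of muscle, 0.82) were higher and Jam3 lower (-0.43), of 8 tested.

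Genes lower in Tead1/2 mutant cells were led by Tead2 itself (log2 difference -3.69, SE 0.22, edgeR FDR 4.56e-05) and by Ptpro, a receptor tyrosine phosphatase. Ptpro stood at 246, 261 and 202 CPM in Insm1 mutants and at 33.4, 37.0 and 28.9 CPM in Tead1/2 mutants (-2.82, SE 0.13, FDR 1.01e-05). In other barcodes the order was opposite, 83.3 to 91.3 CPM against 111 to 147 CPM. The uncharacterised 2310014F06Rik stood at 101, 94.2 and 99.4 CPM and at 19.9, 15.7 and 21.8 CPM (-2.36). Fbxo17, Kash5, Dera, Pcdh11x, Isl1 (a LIM-homeodomain factor) and Isyna1 were lower by log2 values of -1.88 to -1.25. Of these Kash5 had the opposite sign over all depths (0.74, edgeR FDR 0.00679).

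Single synaptic genes differed as well. Dlg2, a postsynaptic scaffold, stood at 2895, 1817 and 2296 CPM in Insm1 mutants and at 1149, 622 and 898 CPM in Tead1/2 mutants (-1.37, edgeR FDR 0.0198), against 655 to 821 CPM in other barcodes of both lines. Grin2b, an NMDA receptor subunit, stood at 59.9, 140 and 71.5 CPM and at 27.3, 32.4 and 28.3 CPM (-1.63), and it was also lower in other barcodes of Tead1/2 mutants (209 to 325 CPM against 582 to 835 CPM). Ctnna2, the neuronal alpha-catenin, stood at 265, 244 and 256 CPM and at 527, 702 and 702 CPM (1.35, SE 0.12, FDR 0.000532), with 1734 to 2115 CPM in other barcodes. Over all depths its difference was -0.37 (FDR 0.00874), the opposite sign.

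Over all depths the largest differences included these. Myof (2.37), Insm1 (2.21), Myh8 (1.93), Tnnc1 (the slow troponin C, 1.87), ENSMUSG00000120211 (1.86), Itgb6 (1.82), Runx1 (1.80) and Pkhd1 (1.79) were higher in Tead1/2 mutants, followed by the unnamed transcripts Gm43824, Gm13938 and Gm48155 (1.76 to 1.78). Of the genes just named Myof, Insm1 and ENSMUSG00000120211 were also called in shallow cells. Tead2 (-2.77) and a set that includes the Purkinje cell genes Pcp4 (-2.66), Calb1 (-2.48) and Car8 (-2.41) were lower, with 9630028H03Rik, Kcnip1, Ndst4, Snhg11, Cdh18, Arhgef33, Shisa6 and Fstl5 (-2.5 to -2.06). In shallow cells Tead2 and Fstl5 of these 12 were called, 9630028H03Rik (0.12) and Arhgef33 (0.51) had the opposite sign without passing the test, and Pcp4, Calb1, Car8 and Snhg11 were too low to be tested. Calb1, for one, stood at 0.557 to 3.06 CPM in the shallow cells.

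Whether the mutants differ in the change from other barcodes to sarcomere-positive cells was tested as an interaction, with both sets of cells of each animal in 1 fit. Over all depths 5.98% of 20,634 genes were higher and 11.4% lower in Tead1/2 mutants, with 20 of 50 programme genes higher and 15 of 32 granule neuron genes lower and 2 higher. The balance over all genes turned without Insm1 mutant 2 (685 higher, 323 lower) and with 7 of 12 rule genes required (1792 higher, 1287 lower). In cells of 1000 to 10,000 UMIs 0.282% of 15,976 genes were higher (45) and 0.138% lower (22), and 0 of the 50 programme genes and 0 of 30 granule neuron genes were called. The programme genes were ranked by this same contrast, so nothing is read from their counts. Car3, a carbonic anhydrase of slow muscle, was high in shallow cells of both mutants (61.0, 78.6 and 66.6 CPM, and 52.2, 85.6 and 83.4 CPM) while other barcodes differed (16.1 to 16.3 CPM against 2.90 to 4.16 CPM), an interaction of 2.38 (FDR 0.000864 in edgeR). Ptpro gave an interaction of -3.26 (FDR 2.73e-06). Ryr3, a calcium release channel, and Dok7, an activator of Musk, were the coupling and junction genes called in this interaction in shallow cells, both positive. Within shallow sarcomere-positive cells no gene of either list was called between the mutants. In other barcodes of 1000 to 10,000 UMIs both Ryr3 and Dok7 were called lower in Tead1/2 mutants. Over all genes of that fit 4.40% were lower and 6.09% higher.

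The programme genes were then read in bulk RNA of samples labelled cerebellar cells at postnatal day 2 (P2), which the cell rule did not use. These were 4 Insm1 mutants and 4 controls, and 4 Tead1/2 mutants and 3 controls, with 28,066,643 to 64,518,751 estimated counts per library. In bulk RNA fewer cells of a type and less RNA per cell cannot be told apart. In the Insm1 comparison edgeR called 94 of 19,582 genes higher, 0.48%. Of the 50 programme genes 43 were tested and 24 were called higher, 0 lower (median log2 change of the 43, 1.59), and of the 12 rule genes 11 were higher, all but Ryr1. Genes near 0 in controls passed the low-count filter only through the mutants and could only be called higher. Trim55, for one, stood at 0 to 0.106 CPM in controls and at 0.821 to 1.42 CPM in mutants. The count of 0 lower and the median are thus partly fixed by the filter. Ttn stood at 14.4, 19.7, 12.3 and 15.5 CPM in controls and at 85.1, 96.4, 67.8 and 111 CPM in mutants (log2 change 2.54, SE 0.18, FDR 0.000269). Myh3 stood at 1.83, 4.12, 1.5 and 1.64 CPM against 49.2, 50.5, 24.4 and 46.3 CPM (4.22, SE 0.35, FDR 0.000669). Mylpf stood at 0.265, 0.554, 0.240 and 0.0926 CPM against 8.5, 6.16, 2.54 and 6.38 CPM (4.32, SE 0.47, FDR 0.00289). No control overlapped with a mutant for these 3 genes. With the replicate number as a block 15 programme genes were called. Without Insm1 control 1 these were 13 programme and 7 rule genes, and without control 4 or without mutant 4 it was 16 programme genes.

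The programme genes that are not sarcomere genes behaved less alike at P2. Pkhd1 rose in Insm1 mutants (0.314, 0.475, 0.600 and 0.401 CPM against 1.12, 1.21, 1.08 and 1.17 CPM, log2 change 1.36, edgeR FDR 0.0216). H19 stood at 41.2, 22.0, 13.3 and 17.4 CPM in controls and at 72.8, 55.2, 41.7 and 42.6 CPM in mutants (FDR 0.22), and Trp63 at 0.123 to 0.554 CPM and 0.453 to 0.736 CPM (FDR 0.605). Rian (FDR 0.22) and Mirg (FDR 0.367), both of 1 imprinted locus, were not called. Trdn, first at P7, was not called either (FDR 0.0595).

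In the Tead1/2 comparison at P2 the library labelled Tead1/2 mutant 4 stood with the controls for muscle genes and for Tead2, which was at 24.3, 25.8 and 22.4 CPM in controls, at 18.8, 19.1 and 17.5 CPM in Tead1/2 mutants 1 to 3 and at 24.9 CPM in that library. Myog was at 28.2, 36.1 and 34.9 CPM in Tead1/2 mutants 1 to 3, at 0.398 CPM in the library labelled mutant 4, and at 0.207 to 0.321 CPM in controls. With all 7 libraries edgeR called 0 of 20,247 genes (0%, with 4052 at an unadjusted p under 0.05, while DESeq2 called 1026), so 0 of 44 programme genes tested were called, with 27 at an unadjusted p under 0.05 and 6 called by DESeq2. That library was singled out by these same muscle genes, so values without it have their direction fixed by the choice and support nothing. Without it 1.98% of 20,234 genes were higher (400), and of the 44 programme genes 20 were higher and 1 lower, and 10 of the 12 rule genes were higher. Ttn stood at 14.9, 16.2 and 15.5 CPM in controls, at 57.7, 68.5 and 71.2 CPM in mutants 1 to 3 and at 9.86 CPM in the library labelled mutant 4 (log2 change 1.79, edgeR FDR 0.115). Tnnt2 stood at 0.362, 0.143 and 0.392 CPM against 5.59, 8.99 and 5.45 CPM, with 0.123 CPM in the library labelled mutant 4.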

How the data were processed

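The P7 single-cell tables hold UMI counts per gene and barcode as the authors deposited them, over 57,010 genes of a GRCm39 annotation named in the tables. The P2 bulk tables hold expected counts deposited by the authors, rounded here to whole numbers. Per the submitters' processing notes the tools used across the series include STAR 2.7.9a, RSEM 1.3.3 and Seurat 4.4.0, with no role given. The bulk table named for one gene holds the columns of the other line, and columns were matched to samples by column name. ATAC-seq and CUT&RUN samples of the series were not analysed here.

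Barcodes were taken with at least 1000 UMIs and 500 genes, and doublets were not removed. Sarcomere-positive cells and all gene lists were chosen with earlier results of these data known. Levels are CPM of summed UMIs per library, and ratios use CPM plus 1. Counts summed per library were fitted with edgeR 4.0.16 (quasi-likelihood test, TMM, Benjamini-Hochberg adjustment, threshold 0.05) in R 4.3.3, and the share of cells with granule genes was compared with a two-sided exact permutation test in scipy 1.17.1. DESeq2 1.42.0 was an alternative. The others were no filter on low counts, library size alone, 7 of 12 genes, a limit of 15% mitochondrial UMIs, a block on the library number, the dissection as a covariate, each library left out and, added after seeing the data, fits and shares at 1000 to 10,000 UMIs and fits thinned to 1000 UMIs.

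Genes named for the difference between mutants are the 12 called genes per direction with the largest log2 difference, a mean of at least 20 CPM in one mutant and no overlap between libraries, and for the interaction the 5 per direction with the smallest adjusted p. Of the 50 programme genes (at least 20 CPM in both mutants) about the first 20 are named. Genes shown from the lists were chosen with their values known, not only by the highest CPM. Each animal is 1 library, with 2 or 3 per group at P7, so p-values measure the spread between these animals. Library numbers did not pair the P7 samples: deviations of same-numbered libraries correlated at 0.10, -0.12 and 0.17. No libraries were copies of each other. Counts were simulated for the 4 fits at full depth (between mutants, interaction, P2 Insm1 and P2 Tead1/2, on 19,358 to 20,876 genes). The 200 changed genes were drawn only from genes with a mean above 5 CPM. Of those changed by a log2 of 1 the fits recovered 98%, 100%, 95% and 99%, and 7.48%, 7.83%, 2.99% and 5.26% of their calls were false. Many programme genes lay below 5 CPM at P2, so these shares do not cover them. No simulated library stood apart from its group, as that labelled Tead1/2 mutant 4 does, so the 99% says nothing of the real Tead1/2 comparison at P2. The fits at 1000 to 10,000 UMIs were not simulated. Intervals cover counting error only. A few genes met the naming rule and are not reported here.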

Additional observations from a re-analysis of the deposited data

Results flagged for a closer look

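Results are listed here because the change from other barcodes to sarcomere-positive cells differed between Tead1/2 and Insm1 mutants in an interaction test, or because 1 library lay far from its group.

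Over cells of all depths the log2 difference of that change was 2.71 for Car3, 1.32 for Chrm3 (a muscarinic receptor), 1.2 for Pdzrn4, 1.35 for Stum and 0.53 for Atg4a, and it was -1.71 for Tmem132d, -1.08 for Chsy3, -0.63 for Lhfpl2, -0.59 for Mctp1 and -0.79 for Plxdc2. At 1000 to 10,000 UMIs it was 2.38 for Car3, 2.18 for Chrm3, 1.34 for Pdzrn4, 1.79 for Slc35f3 and 1.52 for Mid1, and -3.26 for Ptpro, -0.95 for Lef1, -0.86 for Neurl1a, -2.04 for Rerg and -1.70 for 2310014F06Rik. Car3, Chrm3 and Pdzrn4 appear at both depths. Chrm3 stood at 387, 179 and 234 CPM in shallow sarcomere-positive cells of Insm1 mutants and at 571, 565 and 552 CPM in those of Tead1/2 mutants, while other barcodes held 322, 288 and 271 CPM and 172, 151 and 144 CPM.

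At P2 the gap of the outermost library to the next, as a share of the group's range, was above the 0.829 limit in 6 of 61 gene groups of Insm1 controls, 2 of 61 of Insm1 mutants and 3 of 61 of Tead1/2 mutants. Chance gives about 1 in 20. Insm1 control 2 was high for Myh3 (4.12 CPM), Actc1 (5.30 CPM), Acta1 (1.45 CPM), Tnni1 (1.27 CPM) and Lmod3 (0.0264 CPM, the others at 0), and Insm1 control 1 was listed at 0 for Atcayos. Insm1 mutant 3 was low for Myh3 (24.4 CPM), and Insm1 mutant 1 stood apart for Casq2 (3.70 CPM). The library labelled Tead1/2 mutant 4 was low for Pkhd1 (0.398 CPM), Myom2 (0.123 CPM) and Alpk2 (0.368 CPM).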

How the results depend on the processing

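The higher share of sarcomere-positive cells in mutants kept its direction in every setting run: leaving out 1 library gave 15.3 to 18.6 points for Insm1, 24.2 to 31.6 for Tead1/2 and 6.01 to 13.4 between the mutants, and the granule co-detection difference ranged from -1.47 to -0.699. Genes that differed between the mutants numbered 6423 over all depths, 152 at 1000 to 10,000 UMIs, 1292 thinned to 1000 UMIs and 4206 to 6362 with a library left out. For the interaction 3583 genes fell to 67 at 1000 to 10,000 UMIs and 377 when thinned, with 1008 to 3916 with a library left out. Of these calls 34.4% were higher in Tead1/2 mutants, against 50.2% in DESeq2, 20.3% without TMM, 58.2% with 7 of 12 genes, 67.2% at 1000 to 10,000 UMIs and 68.0% without Insm1 mutant 2. Programme genes called at P2 numbered 13 to 25 for Insm1 with a library left out, and for Tead1/2 0 to 21, with 6 in DESeq2 and 19 with no filter on low counts. The 21 came without the library labelled Tead1/2 mutant 4.

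With the replicate block 5907 genes were called between the mutants at P7, and 15 programme genes at P2 in the Insm1 line. The replicate numbers did not pair these samples. In the Tead1/2 line at P2 the block fit called 14 programme genes. It tested 20,234 genes, as did the fit without the mutant library that stood with the controls, and it too left that library out. These 14 calls thus do not show the effect of the block alone, and like other values without that library they support nothing. With dissection as a covariate (all lobules in number 1, without IX and X in the others) 7093 genes were called between the mutants. At 1000 to 10,000 UMIs the sign turned for 9630028H03Rik (0.12), Arhgef33 (0.51), Ctnna2 (1.35) and Kash5 (-1.88), and for the interactions of Plxdc2 (0.28) and Neurl1a (-0.86, and -0.25 thinned). Trpm3 ranged from -0.041 to 0.76 over all depths with a library left out. The cause of these changes was not tested. A doublet caller, Scrublet, was planned and tried on part of the libraries. Its automatic threshold marked no barcode in 1 of them and a large share in others, no other threshold was tried, and no result without marked barcodes was computed.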
